A study of Mus musculus with 2 samples.

Results

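Myosin light chain genes were compared between 1 library of Cipc scko satellite cells and 1 library of Cipc flox/flox satellite cells of the mouse. The genes were chosen by name as 9 muscle and non-muscle light chains, Myl1, Myl2, Myl3, Myl4, Mylpf, Myl6, Myl6b, Myl12a and Myl12b, and each has a row in the count table of 16190 genes. The Cipc scko library came from mice in which Cipc, which encodes a repressor of the clock factors CLOCK and BMAL1, was deleted in satellite cells, the stem cells of skeletal muscle. The Cipc flox/flox library came from mice that carry floxed Cipc alleles. The tibialis anterior muscle, a leg muscle, was the source of both, and the strain label of both is C57BL/6. The sample titles call the same groups Cipc-/- and Cipc+/+. The sources used here do not give the promoter that drives the deletion, the animals' age and number, or whether cells were cultured before RNA was taken. With 1 library per group no difference has a replicate check and no p-value was computed, and the values belong to these 2 libraries only.

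A muscle myosin molecule has heavy chains, whose heads pull on actin, and each head carries on its neck an essential light chain and a regulatory light chain. Both stiffen the neck that acts as a lever, and the regulatory chain can be phosphorylated by myosin light chain kinases. Skeletal muscle fibres use sarcomeric isoforms that differ between fast, slow and developing fibres, whereas non-muscle cells and myoblasts use ubiquitous isoforms in the myosin of stress fibres and the cell cortex. A switch from ubiquitous to sarcomeric light chains accompanies the differentiation of myoblasts into myotubes.

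The members that differ least in sequence are the regulatory chains of non-muscle myosin, Myl12a and Myl12b. They are shown first because near-identical genes can share reads. Their coding sequences have 516 bases each without the stop codon and differ at 18 of them, an identity of 96.5%. The first 90 coding bases of the GENCODE vM21 transcripts on GRCm38 are printed 5′ to 3′ with the bases that differ from the other one of the pair in capitals, and for Myl9, the smooth muscle regulatory chain, the bases that differ from Myl12a.
Myl12a: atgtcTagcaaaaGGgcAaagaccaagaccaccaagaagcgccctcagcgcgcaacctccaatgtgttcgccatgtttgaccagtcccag
Myl12b: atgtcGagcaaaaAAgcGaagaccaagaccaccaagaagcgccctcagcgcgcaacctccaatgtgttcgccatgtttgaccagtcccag
Myl9: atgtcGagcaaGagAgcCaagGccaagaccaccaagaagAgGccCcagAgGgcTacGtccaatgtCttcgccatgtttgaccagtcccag
Myl12a and Myl12b differ at 4 of these 90 bases, and Myl9 differs from Myl12a at 13. Over whole transcripts, 10.2% of the 50-base windows of Myl12a and 9.17% of those of Myl12b also occur in the other gene, and 1.14% and 1.03% of the 100-base windows. The next closest pair of members, Myl6 and Myl6b, has a coding identity of 80.2%. Every other pair of members of the same class lies between 66.1% and 78.1%. Reads of Myl6 can also match processed pseudogenes, since 53.2% of its 50-base windows occur in 5 of them that were not analysed here. For Myl1 this holds for 32.1% of windows and 1 pseudogene. A read-through gene that spans Myl12a and Myl12b, and carries the name of Myl12b, was not analysed here. It holds 29.2% of the 50-base windows of Myl12a and 33.0% of those of Myl12b, and 24.5% and 31.4% of their 100-base windows. Windows of Myl4, Myl3 and Mylpf occur in no other annotated transcript.

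Promoters are shown for the sarcomeric genes Mylpf and Myl1, for Myl6b and for the pair Myl12a and Myl12b, whose values are the ones described most closely here. They are RefSeq sequences on GRCm38.p6, each running from 250 bases before to 50 bases after an annotated start, 5′ to 3′ on the gene's own strand. The motif of 6 bases CANNTG, the E-box that MyoD family factors bind, is in capitals. CANNTG reads the same on both strands, and its form CAGCTG is counted within it.
Mylpf (chr7:127211358-127211657, plus strand): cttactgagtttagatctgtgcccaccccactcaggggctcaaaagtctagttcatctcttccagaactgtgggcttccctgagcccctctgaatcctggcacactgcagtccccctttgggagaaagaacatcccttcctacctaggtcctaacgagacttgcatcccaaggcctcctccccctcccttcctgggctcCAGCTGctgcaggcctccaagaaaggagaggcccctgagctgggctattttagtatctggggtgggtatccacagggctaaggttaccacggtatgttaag
Myl1 (chr1:66945007-66945306, minus strand): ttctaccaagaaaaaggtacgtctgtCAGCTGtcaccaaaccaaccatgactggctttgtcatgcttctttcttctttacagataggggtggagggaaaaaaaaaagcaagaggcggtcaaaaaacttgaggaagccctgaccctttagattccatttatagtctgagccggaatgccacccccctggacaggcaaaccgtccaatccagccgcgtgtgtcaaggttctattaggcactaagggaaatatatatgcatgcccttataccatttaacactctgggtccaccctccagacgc
Myl6b (chr10:128498636-128498935, minus strand): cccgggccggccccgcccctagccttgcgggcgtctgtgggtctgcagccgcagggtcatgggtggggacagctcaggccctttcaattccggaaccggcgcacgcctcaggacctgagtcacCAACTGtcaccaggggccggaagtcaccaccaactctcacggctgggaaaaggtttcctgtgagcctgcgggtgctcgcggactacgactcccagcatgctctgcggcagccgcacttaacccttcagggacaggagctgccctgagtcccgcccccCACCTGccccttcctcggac
Myl12a (chr17:71002484-71002783, minus strand): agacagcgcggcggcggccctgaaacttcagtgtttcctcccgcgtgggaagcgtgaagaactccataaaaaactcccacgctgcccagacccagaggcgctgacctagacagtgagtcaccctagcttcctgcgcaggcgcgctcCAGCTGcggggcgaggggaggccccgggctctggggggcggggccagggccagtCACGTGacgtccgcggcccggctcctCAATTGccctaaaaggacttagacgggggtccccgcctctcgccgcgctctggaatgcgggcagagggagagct
Myl12b (chr17:70990467-70990766, minus strand): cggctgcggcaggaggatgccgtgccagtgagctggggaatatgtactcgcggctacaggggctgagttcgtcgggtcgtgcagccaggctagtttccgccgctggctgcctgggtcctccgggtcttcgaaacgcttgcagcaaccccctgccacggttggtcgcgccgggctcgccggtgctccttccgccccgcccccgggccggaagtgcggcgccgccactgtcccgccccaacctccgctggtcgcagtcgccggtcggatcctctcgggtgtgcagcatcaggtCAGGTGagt
CAGCTG occurs once each in the Mylpf, Myl1 and Myl12a windows, at positions -51, -224 and -104 counted from the start. It is in 16.3% of the 32851 RefSeq promoter windows, and CANNTG is in 72.3% of them. None of the printed windows holds a CArG box, the site of serum response factor, or a MEF2 site, which is in 0.557% of windows. CAGCTG is absent from the Myl6b and Myl12b windows. It occurs in both Myl2 windows, which lie 8259 and 7794 bases before the principal start of Myl2 and are not printed. The Myl3 window and 1 of the 2 Myl6 windows hold a CArG box, which 1.63% of windows do. Counted from the start of that Myl6 window, the principal start lies at -866. The other Myl6 window, with the principal start at 11, holds no CArG box. For the printed Myl12b window the principal start lies at -374, before the whole window. The Myl1 window lies at another of its annotated starts, 9702 bases before that of the principal transcript, and Myl4 is left out because its RefSeq window lies 26322 bases away from its principal start. A match is a description of letters and was not tested against the expression values.

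The depth was close in both libraries, with 16830168 counts in Cipc scko cells and 16145870 in Cipc flox/flox cells. Cipc had 594 counts in Cipc scko cells and 1907 in Cipc flox/flox cells, at a log2 ratio of -1.61 (95% counting interval -1.74 to -1.47). Xist, the RNA that coats a silenced X, had 4 counts in Cipc scko cells and 3898 in Cipc flox/flox cells, and the Y-linked Ddx3y had 511 in Cipc scko cells and 0 in Cipc flox/flox cells, so sex and genotype cannot be told apart. Values below are CPM (counts scaled to a common library total) after TMM scaling, unless given per length. Values per length, as FPKM or per kilobase, rest on library totals without TMM scaling. Log2 ratios have Cipc scko on top and carry a prior count of 0.5 per library. A call needed a ratio of 2-fold or more in either direction and an interval, which covers counting error only, that excluded equality. Of 12874 genes past a filter on low counts, 37.2% were called, 21.2% as higher in Cipc scko and 15.9% as lower.

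Of the 9 light chain genes, 8 passed the filter, and of these 6 were called higher in Cipc scko, 1 lower and 1 neither, beside the 37.2% called over all genes. The sarcomeric chains Myl4, Mylpf, Myl1 and Myl2 were higher, and so were the ubiquitous Myl6b and Myl12a. Myl12b was lower and Myl6 was not called. The 4 sarcomeric genes past the filter had a median log2 ratio of 7.10, or 5.82 with the gene at 0 counts set to its bound, beside 0.0062 over all genes tested. The 4 ubiquitous ones had a median of 0.45. Summed, the 5 sarcomeric genes reached 5395 CPM in Cipc scko, against 46.5 CPM in Cipc flox/flox, and the 4 ubiquitous genes 2371.5 CPM in Cipc scko, against 1840 CPM in Cipc flox/flox. Sarcomeric light chains thus had more counts than ubiquitous ones in Cipc scko and fewer in Cipc flox/flox. In bulk RNA, more cells that carry a transcript and more transcript per cell cannot be told apart.

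**Figure D1:**
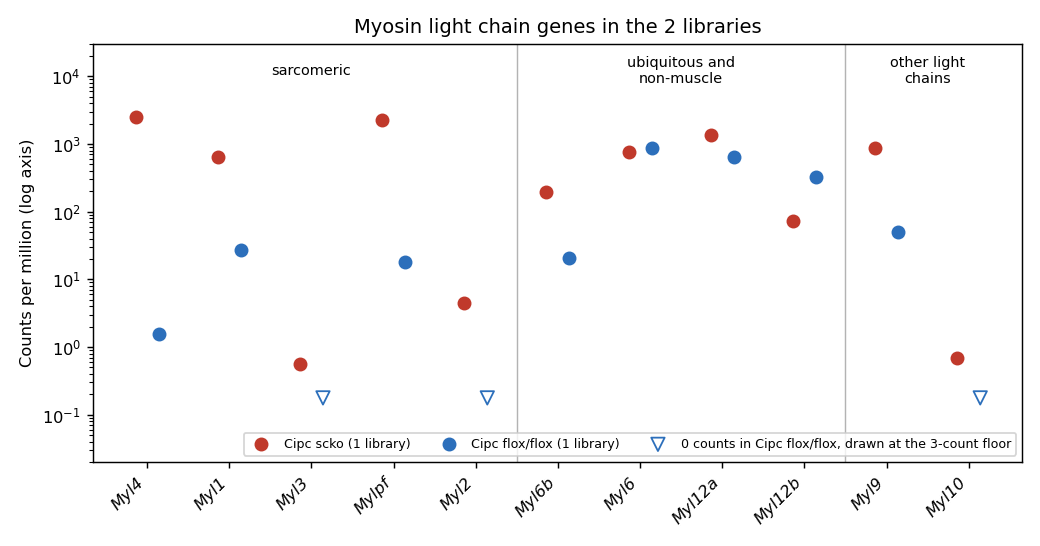
Level in CPM on a log axis for the 9 light chain genes and for Myl9 and Myl10, with a point per library and Cipc scko left of Cipc flox/flox. Open triangles mark 0 counts, drawn at the 3-count floor of 0.177 CPM. Myl4, Myl1 and Mylpf lie between 633.5 and 2508 CPM in Cipc scko and between 1.54 and 26.9 CPM in Cipc flox/flox, while Myl6 and Myl12a are at or above 636.8 CPM in both.

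Myl4 encodes the essential light chain of atrial muscle and of embryonic skeletal muscle (ENSMUSG00000061086, GRCm38 chromosome 11, 104550663 to 104595753). It had 40271 counts in Cipc scko cells and 26 in Cipc flox/flox cells, or 2508 CPM in Cipc scko against 1.54 CPM in Cipc flox/flox. The log2 ratio was 10.65 (10.12 to 11.29), a 1601-fold difference that ranked 60 among the 12874 genes tested. Myl4 had the highest CPM of the light chain genes in Cipc scko and lay close to the lower limit of the filter in Cipc flox/flox. By deposited FPKM it ranked 92 of 16190 genes in Cipc scko cells and 11776 in Cipc flox/flox cells. The genes nearest to it in log2 ratio, among 7818 with a mean CPM of at least 20, were Atcayos (788 counts in Cipc scko), Gdf6 (794) and Gpx7 (804). All 3 had 0 counts in Cipc flox/flox, so that their ratios of 10.66, 10.67 and 10.69 depend on the prior count and rest on only these 2 libraries.

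Myl1 encodes the essential light chain of fast skeletal fibres (ENSMUSG00000061816, chromosome 1, 66924295 to 66945404). It had 10170 counts in Cipc scko cells and 455 in Cipc flox/flox cells, or 633.5 CPM in Cipc scko against 26.9 CPM in Cipc flox/flox. The log2 ratio was 4.56 (4.42 to 4.70), or 23.5-fold. Myl1 was the most counted sarcomeric light chain gene in Cipc flox/flox, and its ratio was below those of Myl4 and Mylpf, the other sarcomeric chains with counts in both libraries. The gene gives a long and a short isoform from separate promoters, which a count per gene does not separate.

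Mylpf encodes the regulatory light chain of fast skeletal fibres (ENSMUSG00000030672, chromosome 7, 127208890 to 127214298). It had 36085 counts in Cipc scko cells and 306 in Cipc flox/flox cells, or 2248 CPM in Cipc scko against 18.1 CPM in Cipc flox/flox, at a log2 ratio of 6.96 (6.80 to 7.12). That is a 124-fold difference. At 1220 FPKM it ranked 28 of all genes in Cipc scko, against a rank of 4091 at 10.8 FPKM in Cipc flox/flox. Chromosome 7 as a whole had a median log2 ratio of 0.40, and chromosomes 1 and 11, which hold Myl1 and Myl4, had medians of -0.01 and -0.12, all far from the ratios of these genes.

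The slow and ventricular chains Myl2 and Myl3 were scarce in both libraries. Myl2, the regulatory chain of slow fibres and of the ventricle (ENSMUSG00000013936, chromosome 5, 122100951 to 122113472), had 73 counts in Cipc scko cells and 0 in Cipc flox/flox cells. At 4.55 CPM it was at least 25.7-fold higher, taking 3 counts as the floor. Myl2 passed the filter through Cipc scko alone, so a call as lower was hardly possible for it. Its log2 ratio of 7.24 depends on the prior count. Over the settings given at the end it ran from 1.28 to 7.26. Myl3, the essential chain of slow fibres and of the ventricle (ENSMUSG00000059741, chromosome 9, 110741861 to 110769798), had 9 counts in Cipc scko cells and 0 in Cipc flox/flox cells and did not pass the filter. Its bound was a 3.16-fold higher level, and 95 of its 2044 exon bases overlap Pth1r on the opposite strand, which had 32 counts in Cipc scko cells and 7 in Cipc flox/flox cells. The sources used here do not say whether counting used strand.

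**Figure D2:**
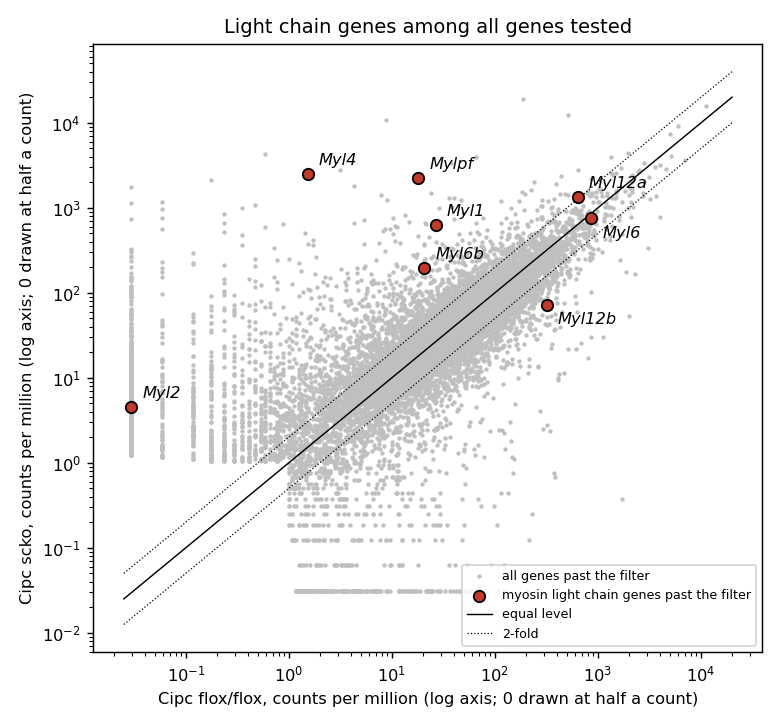
Level in CPM of the 12874 genes past the filter in Cipc scko (vertical) and Cipc flox/flox (horizontal), both on log axes, with genes at 0 drawn at 0.5 counts. The 8 light chain genes that passed are marked. Myl4, Mylpf, Myl1, Myl6b and Myl2 lie above the 2-fold line and Myl12b below the lower one, with Myl12a just above 2-fold and Myl6 near equality.

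Myl6b encodes an essential light chain found in slow skeletal muscle and in non-muscle cells (ENSMUSG00000039824, chromosome 10, 128494157 to 128498685). It had 3147 counts in Cipc scko cells and 349 in Cipc flox/flox cells, or 196.0 CPM in Cipc scko against 20.6 CPM in Cipc flox/flox, at a log2 ratio of 3.25 (3.09 to 3.41). Its neighbour Myl6, the essential chain of non-muscle and smooth muscle myosin (ENSMUSG00000090841, chromosome 10, 128490860 to 128494145), had 12246 counts in Cipc scko cells and 14582 in Cipc flox/flox cells, or 762.8 CPM in Cipc scko against 861.5 CPM in Cipc flox/flox. The ratio of Myl6 was -0.18 (-0.21 to -0.14), under the 2-fold limit although its counting interval excluded equality. Summed, the pair had 15393 counts in Cipc scko cells and 14931 in Cipc flox/flox cells, at a log2 ratio of 0.12 (0.09 to 0.15). Myl6 held 79.6% of the pair's counts in Cipc scko cells and 97.7% in Cipc flox/flox cells. Chromosome 10 had a median log2 ratio of -0.34, of the same sign as that of Myl6 and opposite to that of Myl6b.

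Myl12a and Myl12b, the regulatory chains of non-muscle myosin, went opposite ways. Myl12a (ENSMUSG00000024048, chromosome 17, 70993656 to 71002878) had 21512 counts in Cipc scko cells and 10779 in Cipc flox/flox cells, or 1339.9 CPM in Cipc scko against 636.8 CPM in Cipc flox/flox, at a log2 ratio of 1.07 (1.04 to 1.11). Myl12b (ENSMUSG00000034868, chromosome 17, 70973133 to 70990890) had 1168 counts in Cipc scko cells and 5431 in Cipc flox/flox cells, or 72.8 CPM in Cipc scko against 320.9 CPM in Cipc flox/flox, at a log2 ratio of -2.14 (-2.23 to -2.05), or 4.41-fold lower. The summed pair had 22680 counts in Cipc scko cells and 16210 in Cipc flox/flox cells, at a log2 ratio of 0.56 (0.53 to 0.59) that did not reach 2-fold. Myl12a held 94.9% of the pair's counts in Cipc scko cells and 66.5% in Cipc flox/flox cells. Their separate values are uncertain because of the shared windows given above, and the call of Myl12a ended with scaling by totals (0.94) and under the other settings given at the end. Of the exon bases of Myl12a, 207 of 3360 overlap Myom1, an M-band gene on the opposite strand that had 1518 counts in Cipc scko cells and 5 in Cipc flox/flox cells. The part of that overlap in the Myl12a value was not tested. The genes nearest to Myl12b in log2 ratio were Fam171a1, Osbp2 and Rabep1, each at -2.14.

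Of the remaining mouse light chain genes, Myl9, which encodes the regulatory chain of smooth muscle, had 14072 counts in Cipc scko cells and 834 in Cipc flox/flox cells, or 876.5 CPM in Cipc scko against 49.3 CPM in Cipc flox/flox (4.15, 4.05 to 4.26). Myl10 had 11 counts in Cipc scko cells and 0 in Cipc flox/flox cells, and did not pass the filter. Myl7 was not analysed here.

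The make-up of each class was compared per length. By deposited FPKM, the sarcomeric chains Myl4, Myl1 and Myl3 made up 32.4% of essential light chain signal in Cipc scko cells and 0.63% in Cipc flox/flox cells. Myl6 made up 57.9% in Cipc scko cells and 97.9% in Cipc flox/flox cells. In Cipc scko the order was Myl6 (1094 FPKM), Myl4 (430.0), Myl6b (182.2), Myl1 (181.7) and Myl3 (0.20), and in Cipc flox/flox it was Myl6 (1358), Myl6b (21.1), Myl1 (8.47), Myl4 (0.29) and Myl3 (listed at 0). Myl6b and Myl1 could not be told apart in level in Cipc scko on this scale. The class as a whole stood at 1888 FPKM in Cipc scko, against 1388 FPKM in Cipc flox/flox.

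Those levels depend on gene length. The deposited FPKM of Myl4 imply a length of 5565 bases and those of Myl1 3326 bases, more than the 4637 and 2074 bases of all their annotated exons together. The principal transcripts, by the APPRIS tag in GENCODE, have 943 and 803 bases. The FPKM of Myl6 imply 665 bases, which is the length of its principal transcript. Per kilobase of principal transcript, a scale chosen after the data were seen, Myl4 stood at 2537 and Myl6 at 1094 CPM per kilobase in Cipc scko, so the order of these genes turned. The sarcomeric share of essential chains was then 72.1% in Cipc scko cells and 2.60% in Cipc flox/flox cells. The essential chains of Cipc scko were therefore mostly Myl6 on one scale and mostly Myl4 on the other, while Myl6 led in Cipc flox/flox on both. Per kilobase of the longest transcript, Myl4 held 43.5%, Myl1 33.2% and Myl6 14.2% in Cipc scko, and Myl6 held 87.1%, Myl1 7.64% and Myl6b 5.10% in Cipc flox/flox.

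The regulatory class stood at 1888 FPKM in Cipc scko, against 303.6 FPKM in Cipc flox/flox. Mylpf led in Cipc scko on both scales, with 64.6% of deposited FPKM and 66.0% per kilobase of principal transcript. In Cipc flox/flox it made up 3.55% and 4.32% on these scales. Myl9 followed in Cipc scko with 21.0% of FPKM, against 8.08% in Cipc flox/flox. Myl12a made up 12.7% in Cipc scko cells and 41.3% in Cipc flox/flox cells, and Myl12b 1.56% in Cipc scko cells and 47.0% in Cipc flox/flox cells. By FPKM Myl12b (142.8) stood above Myl12a (125.5) in Cipc flox/flox, but per kilobase of principal transcript Myl12a (344.7) stood above Myl12b (157.0). Myl2 made up 0.08% of regulatory FPKM in Cipc scko.

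**Figure D3:**
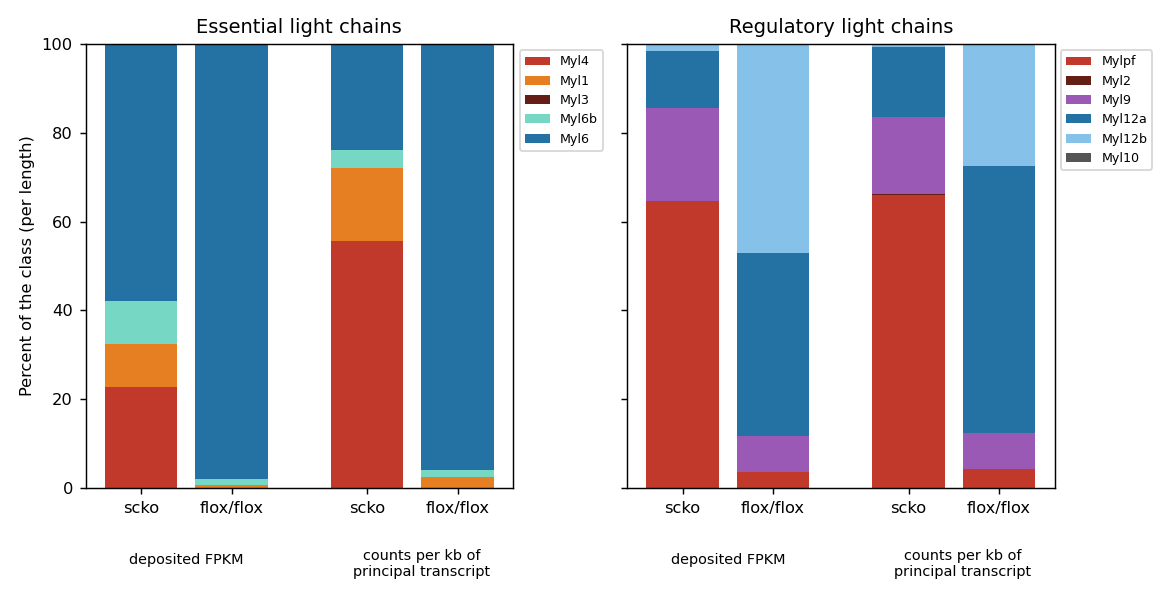
Percent of the essential (left) and regulatory (right) light chain level per length held by each gene, in Cipc scko and Cipc flox/flox, from deposited FPKM and from counts per kilobase of the principal transcript. Mylpf fills 64.6% and 66.0% of the regulatory bars in Cipc scko, and Myl6 97.9% and 95.9% of the essential bars in Cipc flox/flox.

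The heavy chains that bind these light chains were set beside them. Of 7 sarcomeric heavy chain genes past the filter, 7 were called higher in Cipc scko and 0 lower. Over all genes tested, 21.2% were called higher. All 7 were under a CPM of 1 in Cipc flox/flox and passed the filter through Cipc scko alone. A call as lower was therefore hardly possible for these 7 genes. Their median log2 ratio was 10.01, or 7.46 with genes at 0 counts at their bound. With a filter at a CPM of 5, 4 were called higher. The slow and ventricular chain Myh7 had 27995 counts in Cipc scko cells and 0 in Cipc flox/flox cells (at least 9838-fold), and the embryonic chain Myh3 had 15785 in Cipc scko cells and 6 in Cipc flox/flox cells (11.32, 10.32 to 12.88). The perinatal chain Myh8 had 1585 counts in Cipc scko and the fast 2X chain Myh1 had 502, both with 0 in Cipc flox/flox, so that Myh8 was 557-fold higher or more and Myh1 176-fold or more. In Cipc scko the fast 2B chain Myh4 had 34 counts, Myh7b 48, the atrial Myh6 71 and the fast 2A chain Myh2 8, and in Cipc flox/flox Myh4 and Myh7b had 3 each and Myh6 and Myh2 had 0. Myh2 did not pass the filter. Of 3 non-muscle heavy chain genes past the filter, 1 was called. Myh9 stood at 2288 CPM in Cipc scko cells and 2216 CPM in Cipc flox/flox cells (0.05), Myh10 at 103.3 CPM in Cipc scko cells and 160.4 CPM in Cipc flox/flox cells (-0.63), and Myh14 had 26 counts in Cipc scko cells and 4 in Cipc flox/flox cells (2.63).

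The slow and ventricular chains Myh7, Myl2 and Myl3 did not stand at like levels in Cipc scko. Myh7 was at 172.7 FPKM, while Myl2 and Myl3 were at 1.42 and 0.20 FPKM. Myl6b, also found in slow muscle, was at 182.2 FPKM. Per kilobase of principal transcript Myl2 and Myl3 were at 4.88 and 0.57. The embryonic chains Myh3 (140.9 FPKM) and Myl4 (430.0 FPKM) were both high. Of the fast chains, Myh1 and Myh4 stood at 4.14 and 0.31 FPKM, while Mylpf stood at 1220 and Myl1 at 181.7 FPKM. The lengths behind the FPKM of heavy chains were not checked, so heavy and light chains may stand on unlike length scales. No test of these differences between genes was possible within 1 library.

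**Figure D4:**
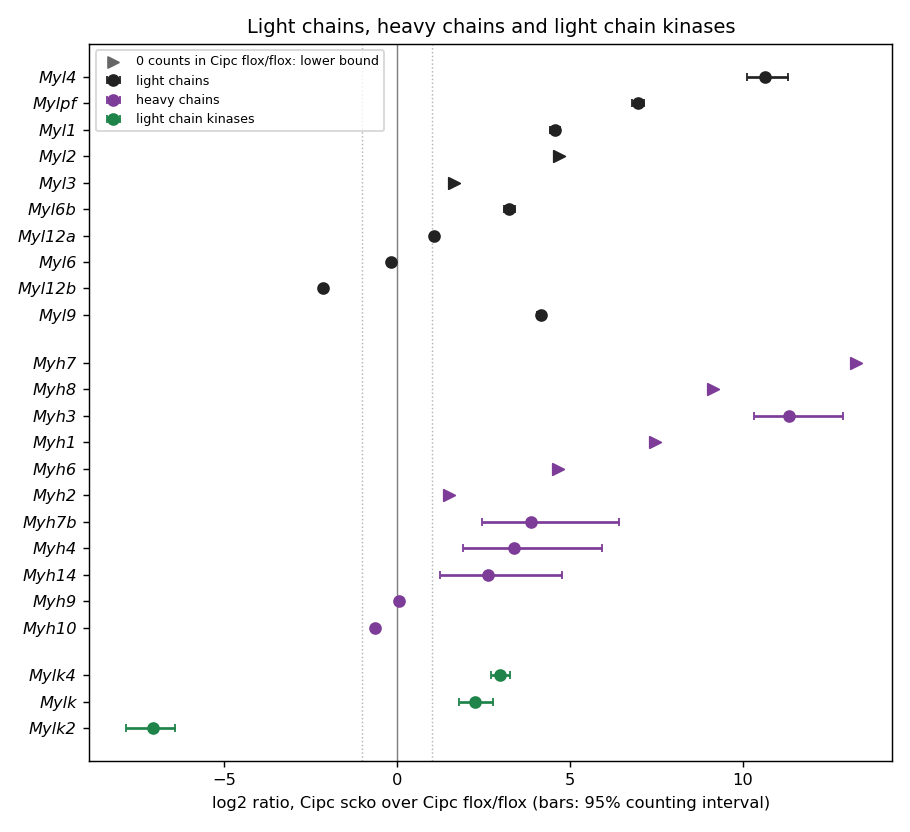
Log2 ratios (Cipc scko on top) of light chains, heavy chains and light chain kinases, with 95% counting intervals as bars and 2-fold as dotted lines. Right-pointing triangles are lower bounds for genes at 0 counts in Cipc flox/flox. Sarcomeric light and heavy chains lie right of the dotted lines, Myh9 and Myl6 lie near 0, and the kinase Mylk2 lies far left at -7.04.

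Among kinases that can act on regulatory light chains, Mylk2 and Stk10 were lower in Cipc scko and Mylk, Mylk4 and Dapk1 were higher. These are the highest and lowest by the naming rule, not the whole list. Mylk2, the kinase of the skeletal muscle regulatory chain, had 18 counts in Cipc scko cells and 2566 in Cipc flox/flox cells, or 1.12 CPM in Cipc scko against 151.6 CPM in Cipc flox/flox, at a log2 ratio of -7.04 (-7.84 to -6.42). Its substrate gene Mylpf differed in the opposite direction. Mylk, the smooth muscle kinase, had 196 counts in Cipc scko cells and 43 in Cipc flox/flox cells (2.25, 1.78 to 2.78), and Mylk4 had 960 in Cipc scko cells and 128 in Cipc flox/flox cells (2.98, 2.72 to 3.26). Dapk1, a death-associated kinase, had 133 counts in Cipc scko cells and 0 in Cipc flox/flox cells, and Stk10 had 195 in Cipc scko cells and 1027 in Cipc flox/flox cells (-2.32). Of 8 phosphatase genes, 3 were called, all higher, and 5 were not (median 0.62), a share close to the 37.2% called over all genes. The targeting subunit of striated and smooth muscle Ppp1r12b stood at 54.1 CPM in Cipc scko cells and 8.45 CPM in Cipc flox/flox cells (2.68, 2.42 to 2.95). The phosphatase inhibitors Ppp1r14a and Ppp1r14c had 185 and 1606 counts in Cipc scko and 0 and 326 in Cipc flox/flox.

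Thick filament partners and muscle regulators were counted beside the light chains. Over all genes tested, 21.2% were called higher in Cipc scko and 15.9% lower. Of 13 partner genes past the filter 10 were called higher and 2 lower, with a median of 5.95, or 3.66 at the bound. Several of those called higher, Unc45b and Mybpc1 among them, were under a CPM of 1 in Cipc flox/flox. They passed the filter through Cipc scko alone, so a call as lower was hardly possible for them. Mybph, a myosin-binding protein gene, had 28600 counts in Cipc scko cells and 72 in Cipc flox/flox cells (8.70, 8.38 to 9.06). The myosin chaperone gene Unc45b had 2119 counts in Cipc scko cells and 4 in Cipc flox/flox cells (8.95), and the slow myosin-binding protein gene Mybpc1 had 845 in Cipc scko cells and 0 in Cipc flox/flox cells. Of 14 regulators, 9 were higher and 2 lower (median 1.35). Some regulators called higher also passed the filter through Cipc scko alone, and Gata4 passed it through Cipc flox/flox alone. Myogenin, Myog, had 44286 counts in Cipc scko cells and 53 in Cipc flox/flox cells (9.77, 9.40 to 10.20), and Mef2c, a partner of myogenic factors at muscle promoters, had 1982 in Cipc scko cells and 61 in Cipc flox/flox cells (5.09). Gata4, a cardiac and endodermal factor, had 0 counts in Cipc scko cells and 750 in Cipc flox/flox cells (at least 237-fold lower), and Nfix, a factor of fetal muscle, was lower at -1.01.

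The cell type label was checked against markers, beside 21.2% of all genes tested called higher in Cipc scko and 15.9% lower. Of 10 satellite cell markers past the filter, 4 were higher in Cipc scko and 1 lower, and the list summed to 2750.0 CPM in Cipc scko cells and 1893 CPM in Cipc flox/flox cells. In Cipc scko Pax7 had 998 counts, Fgfr4 4780 and Cd34 3, and in Cipc flox/flox Pax7 had 43, Fgfr4 0 and Cd34 427. All 12 myocyte and myofibre markers were higher, with summed levels of 23775 CPM in Cipc scko cells and 2031 CPM in Cipc flox/flox cells. The desmin gene Des made up most of the Cipc flox/flox sum, at 1977 CPM, against 4451 CPM in Cipc scko. Some of the 12, Actc1, Mb and the heavy chain Myh3 among them, were under a CPM of 1 in Cipc flox/flox. They passed the filter through Cipc scko alone, so the direction of their call was nearly fixed. The other marker lists also hold genes that passed through a single library. Of 8 smooth muscle and pericyte markers 7 were higher and 1 lower (summed CPM 15114 in Cipc scko cells and 712.6 in Cipc flox/flox cells). A single gene outside the naming rule made up most of both sums, so they are no measure of the list as a whole. The list also holds Myl9, the light chain gene described above. Cspg4, a pericyte marker, was the lower gene, with 0.44 CPM in Cipc scko cells and 29.0 CPM in Cipc flox/flox cells. Of 5 cardiomyocyte markers 3 were higher and 2 lower (summed CPM 1309 in Cipc scko cells and 44.7 in Cipc flox/flox cells), and the defining factor Nkx2-5 and the natriuretic peptide Nppb had 0 counts in Cipc scko, against 34 and 40 counts in Cipc flox/flox. Tnnt2, the cardiac troponin T gene that developing skeletal muscle also uses, made up most of that sum, at 1302.4 CPM in Cipc scko cells and 40.2 CPM in Cipc flox/flox cells. Macrophage, endothelial, Schwann and erythroid lists summed to between 1.43 and 12.2 CPM in Cipc scko and between 1.65 and 47.3 CPM in Cipc flox/flox. Of 6 fibroblast markers 2 were higher and 3 lower (summed CPM 3049 in Cipc scko cells and 2245 in Cipc flox/flox cells). Their median log2 ratio was -1.89, opposite in sign to the change of the sum, most of which was Col3a1 in Cipc scko (2177 CPM, against 849.5 CPM in Cipc flox/flox). The proteoglycan gene Dcn had 1 count in Cipc scko cells and 142 in Cipc flox/flox cells, and the collagen gene Col1a2 had 277 in Cipc scko cells and 13597 in Cipc flox/flox cells. The part of these differences in cell make-up in the light chain values was not tested.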

How the data were processed

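Total RNA of satellite cells was sequenced as 1 library per genotype, with a VAHTS Universal V6 kit per the labels' protocols. Named without a role in the submitters' processing notes are HISAT2 2.0.4, CASAVA, StringTie 1.3.0 and the build GRCm38. Annotation, counting tool and use of strand: not given in the sources used here. Deposited by the authors were raw counts for each Ensembl gene and, library by library, FPKM. Over 13719 genes, the Cipc scko over Cipc flox/flox ratio of FPKM, divided by that of counts per library total, lay within 0.9996 to 1.0002, so FPKM are no independent measurement.

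The 9 genes and all lists were chosen with earlier results of these data known. No protein table was at hand, so coding bases were aligned instead. Symbols and positions came from GENCODE vM21, which names 16116 of 16190 identifiers. TMM factors were computed as in edgeR 4.0.16 (checked against it), in Python 3.11.15. The filter on low counts kept genes that had 20 or more counts in all and reached a CPM of 1 in either library. Intervals are 95% exact binomial (Clopper-Pearson) intervals of the split of counts and cover counting error only, since reads are not independent molecules. A gene at 0 was set against a floor of 3 counts (0.187 CPM in Cipc scko, 0.177 CPM in Cipc flox/flox). The rule was tested on simulated data. Some members of these lists are not reported here. Named are the members, the other light chains, Cipc, all heavy chains, and per list up to 3 highest and 2 lowest genes with a CPM of at least 5. Among markers, Nkx2-5 and Nppb, and Myom1 and Pth1r as overlapping genes, are outside that rule, as are Xist and Ddx3y, and were picked with their values in view. Alternatives were DESeq2 1.42.0 size factors, scaling by totals, by upper quartiles or by trimmed totals, other prior counts, filters, fold limits and intervals, FPKM, summed pairs and other lengths.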

Additional observations from a re-analysis of the deposited data

How the results depend on the processing

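Of 133 alternative values of light chain ratios, 122 kept their call or its absence, 8 lost the call and 2 gained it. Many of the 122 could not have changed. Myl3 and Myl10 did not pass the filter and could gain a call only without it. No filter, a filter at a CPM of 5 and a fold limit of 1.5 could not end a call among these values. The remaining 1, for Myl12b, changed sign and was no longer called. Myl6, never called, also changed sign once, to 0.12 when summed with Myl6b. The call of Myl12a ended with library totals (0.94), trimmed totals (0.99), FPKM with a pseudocount of 0.1 or 1 (0.94 and 0.93), a fold limit of 4 or an assumed coefficient of variation of 0.4 (1.07 in both). Summing gave the pair of Myl12a and Myl12b 0.56, which ended both calls and had the opposite sign to Myl12b alone. Summing gave Myl6 and Myl6b 0.12, which ended the call of Myl6b. Without the filter Myl3 (4.28) and Myl10 (4.56) were called. Cipc (-1.61) missed a limit of 4. Over all genes, 1608 were higher and 860 lower at a limit of 4, 3318 lower at 1.5, 1078 lower with the wider interval, and 1479 higher with FPKM and a pseudocount of 1. With totals 50.8% of calls were higher instead of 57.1%, and the median of all genes moved by -0.14. With a CPM of at least 5, Myl2 (4.55 CPM) dropped out and has no value among the 133, which left 3 sarcomeric light chains and 5 of the 9 genes called higher. At that minimum sarcomeric heavy chains had 4 higher, and non-muscle heavy chains and calmodulins 0. With totals the ubiquitous light chains had 1 higher, and without the filter the other light chains 2. Per longest and per principal transcript, sarcomeric shares were 76.8% and 72.1% of essential chains for Cipc scko, 7.78% and 2.60% for Cipc flox/flox, and for regulatory chains, on both scales, 66.2% in Cipc scko against 4.32% in Cipc flox/flox. No paired analysis was possible because each group has 1 library, which also left no replicate to leave out. Depth limits Myl3, Myl10 and Myh2, with under 20 counts over both libraries.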

Other observations

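Unconventional myosins, whose necks carry calmodulin or related light chains, differed in both directions. Of 12 past the filter, 4 were called higher in Cipc scko, 4 lower and 4 neither (median log2 ratio -0.09). Over all genes tested, 37.2% were called in either direction. Myo7a, known for its role in the hair cells of the inner ear, had 1466 counts in Cipc scko cells and 0 in Cipc flox/flox cells, at least 515-fold higher. The class I motor Myo1d reached 30.3 CPM in Cipc scko cells, against 11.4 CPM in Cipc flox/flox cells. The organelle motor Myo5a was 3.82-fold lower, at 23.1 CPM in Cipc scko cells and 88.3 CPM in Cipc flox/flox cells, and the mitochondrial motor Myo19 was 2.52-fold lower.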
